A study of Mus musculus with 8 samples.

Results

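The 10 genes described here encode parts of the signalling from vasopressin and related hormones through calcium and cyclic nucleotides in liver. They are the receptors Avpr1a, Agtr1a, Adra1b and Gcgr, the phospholipase Plcb1, the calcium channels Itpr1 and Itpr2, the calcineurin regulator Rcan1, and the phosphodiesterases Pde9a and Pde4b. They were taken by gene symbol from a table of 33212 genes, and all 10 were found and passed the filter on low counts. The set was chosen by measured values of this same comparison, a lower Avpr1a and Pde9a and a higher Rcan1 in the knockout, so the genotype difference of these 10 genes is given as a description, without a test.

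Bulk RNA was sequenced from liver of male mice, with 1 library per mouse and 4 mice in each of 2 groups. The first group, labelled Nnmt LKO, carried Alb-Cre and Nnmt flox/flox, in which the albumin promoter drives Cre in hepatocytes, so that other liver cells keep the gene. The second group is WT in the labels, whereas the study's text describes the controls as Nnmt flox/flox and names no Cre for them. The labels give the strain of all 8 mice as C57BL/6. If the controls carried no Cre, the effects of Cre and of the deletion cannot be told apart. All 8 mice ate a diet without methionine and choline (MCD) over 8 weeks, which is known to produce steatohepatitis, and no mice on another diet were in this comparison.

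Vasopressin, angiotensin II and noradrenaline reach hepatocytes through receptors that couple to the G protein Gq. Gq activates phospholipase C, which makes inositol trisphosphate (IP3), and IP3 opens channels that release calcium from the endoplasmic reticulum. Glucagon works mainly through the G protein Gs and cyclic AMP (cAMP), which phosphodiesterases degrade together with cyclic GMP (cGMP), and both routes are known for raising glycogen breakdown and glucose output.

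Total counts per library were between 75020072 and 87934362, and the deposited columns name the genotype but not the mouse. Letters a to d stand for the libraries of a genotype in column order. Levels of one gene across libraries are in CPM, counts scaled to a common library total by edgeR's TMM method, and levels of different genes are compared in RPKM, which divides CPM by the kilobases of annotated exon. At this depth 3 counts correspond to 0.0328 to 0.0418 CPM, and the members had between 334 and 21862 counts in a library. The TMM factor was 1.21 for Nnmt LKO library a and between 0.876 and 1.06 for the other 7 libraries. The targeted gene, Nnmt, was at 31.8, 44.8, 68.9 and 83.0 CPM in Nnmt LKO libraries a to d and at 112, 224, 134 and 84.9 CPM in WT libraries a to d, lower in every Nnmt LKO library by a narrow margin. Over the 15291 genes tested, the median log2 fold change was 0.02.

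The regulatory sequences of the members that differed most are shown first, because Rcan1 has an internal start site that calcineurin itself is known to activate. Sequences were taken from a set of RefSeq start sites on GRCm38.p6. The set used here, which is not the whole of RefSeq, held 7 of the 10 members, with none for Agtr1a, Itpr1 or Pde9a. Each is the 250 bases before an annotated start, written 5′ to 3′ on the strand of the gene, with capitals for TGACG (the core of the site that binds the cAMP-responsive factor CREB), TGACGTCA (the full palindrome) and GGAAA (the core bound by the calcineurin-dependent factor NFAT), searched on both strands. The sequences belong to Avpr1a (chr10:122448249-122448498, plus strand), to the upstream start of Rcan1 (chr16:92466170-92466419, minus strand) and to its internal start (chr16:92400079-92400328, minus strand).
Avpr1a: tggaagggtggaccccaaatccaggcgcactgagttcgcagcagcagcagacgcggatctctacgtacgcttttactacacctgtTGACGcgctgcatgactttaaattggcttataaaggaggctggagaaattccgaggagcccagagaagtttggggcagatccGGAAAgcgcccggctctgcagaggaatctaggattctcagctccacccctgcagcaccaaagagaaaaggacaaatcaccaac
Rcan1 upstream start: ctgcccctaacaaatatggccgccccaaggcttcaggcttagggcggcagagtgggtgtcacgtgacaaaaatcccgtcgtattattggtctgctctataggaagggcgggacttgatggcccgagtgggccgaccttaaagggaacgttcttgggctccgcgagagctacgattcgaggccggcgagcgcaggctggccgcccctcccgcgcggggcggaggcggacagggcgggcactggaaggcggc
Rcan1 internal start: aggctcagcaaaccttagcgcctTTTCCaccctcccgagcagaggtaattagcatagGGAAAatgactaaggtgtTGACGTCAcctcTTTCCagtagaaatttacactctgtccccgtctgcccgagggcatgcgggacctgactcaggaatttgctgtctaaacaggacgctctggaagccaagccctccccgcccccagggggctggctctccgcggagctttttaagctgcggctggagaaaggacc

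The internal start of Rcan1 held 1 TGACGTCA, which begins 175 bases before the start and counts as 2 TGACG matches, 1 on each strand. It also held 3 GGAAA matches, which begin 227, 193 and 163 bases before the start. None of these letters was found in the window of the upstream Rcan1 start. Avpr1a had 1 TGACG at 165 bases and 1 GGAAA at 83 bases before its start. Pde4b, whose libraries overlapped between the genotypes, also had 3 GGAAA before a start, and 1 TGACG before a different start. Ppargc1a, a gene of the wider list below, had 3 GGAAA and 1 TGACG. Other genes of that list were searched too. Pck1 had 1 TGACG and 0 GGAAA, Pde4d had 0 TGACG and 1 GGAAA, and G6pc had 0 of both, while Sik1 was not in the set. Over all 32851 start sites in the set, 1.55% of windows held TGACGTCA, 17.8% held TGACG, 55.6% held GGAAA and 6.39% held 3 or more GGAAA, so a single GGAAA is common. Such matches are letters in a window and not measured sites. The deposited counts are per gene, and the transcripts from the Rcan1 starts could not be separated.

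**Figure D1:**
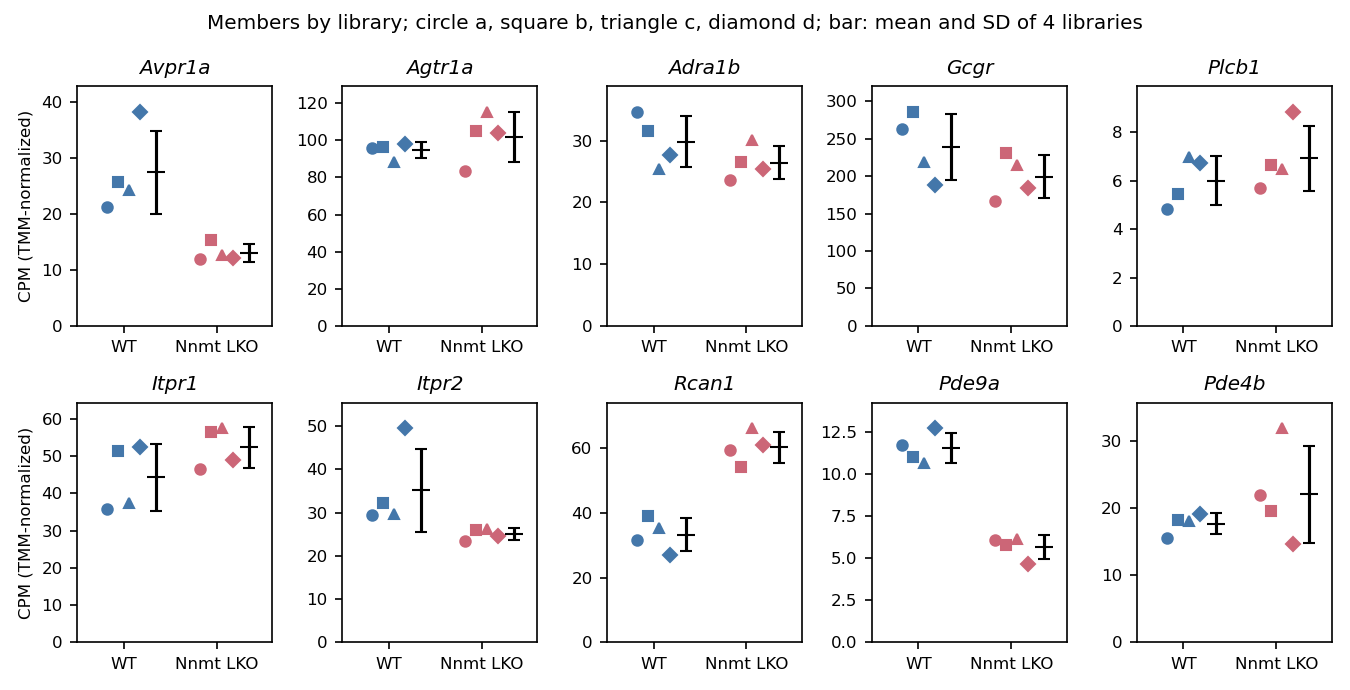
Normalized counts (CPM, linear axes from 0) of the 10 members in each library, WT in blue and Nnmt LKO in red, with a horizontal bar for the mean and error bars for the SD of 4 libraries. The groups are apart for Avpr1a, Itpr2 and Pde9a (lower in Nnmt LKO) and for Rcan1 (higher), and they overlap for the other 6 genes.

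The libraries of the genotypes did not overlap for 4 of the 10 members. Avpr1a, Itpr2 and Pde9a were lower in every Nnmt LKO library than in every WT library, and Rcan1 was higher. Over all tested genes the libraries did not overlap for 8.16%, with Nnmt LKO lower for 4.81% and higher for 3.34%, and since this contrast was used to choose the genes, nothing is read from the comparison of these shares. In whole liver, fewer cells of a type and less RNA per cell cannot be told apart.

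Among the receptors, Avpr1a had the largest difference. Avpr1a (ENSMUSG00000020123, chr10:122448499-122453452 in GENCODE M21 of GRCm38) encodes the V1a vasopressin receptor, the form through which vasopressin mobilizes calcium in hepatocytes. Its normalized counts were 21.3, 25.8, 24.4 and 38.3 CPM in WT libraries a to d and 11.9, 15.4, 12.7 and 12.1 CPM in Nnmt LKO libraries a to d. Every Nnmt LKO library was below the lowest WT library, and WT library d stood highest. The mean went from 27.4 ± 7.49 CPM in WT to 13.1 ± 1.61 CPM in Nnmt LKO (SD, n = 4 each), 47.6% of WT. The log2 fold change was -1.07 (standard error 0.18), and -0.87 without WT library d, the setting that moved it most.

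The other receptors to calcium-mobilizing hormones overlapped between the genotypes. Agtr1a (chr13:30336441-30382867), the type 1a angiotensin II receptor, was at 95.8, 96.4, 88.6 and 98.2 CPM in WT and at 83.4, 105, 115 and 104 CPM in Nnmt LKO libraries a to d. Nnmt LKO library a was the lowest of the 8 and the other 3 were the highest. The log2 fold change was 0.11 (standard error 0.12). Adra1b (chr11:43774606-43901210, minus strand) encodes the alpha-1B adrenergic receptor, which serves noradrenaline in rodent hepatocytes. It was at 34.7, 31.6, 25.5 and 27.7 CPM in WT and at 23.7, 26.6, 30.1 and 25.3 CPM in Nnmt LKO libraries. The ranges crossed, with WT libraries a and b and Nnmt LKO library c at the top, and the log2 fold change was -0.18 (standard error 0.12). When 1 library was left out at a time, Agtr1a ran from 0.04 to 0.19 and Adra1b from -0.25 to -0.08.

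Gcgr (chr11:120530699-120538986), the glucagon receptor, was the most abundant member. It had 264, 286, 218 and 188 CPM in WT libraries and 167, 231, 215 and 184 CPM in Nnmt LKO libraries a to d. WT libraries a and b were above all others, while WT libraries c and d lay inside the Nnmt LKO range. The means were 239 ± 44.2 and 199 ± 28.9 CPM (SD, n = 4 each), and the log2 fold change of -0.26 (standard error 0.16) ran from -0.36 to -0.15 with 1 library left out at a time.

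Downstream of the receptors, Plcb1 (chr2:134786067-135475258) encodes phospholipase C beta 1, one of the enzymes that Gq activates. It was at 4.85, 5.45, 6.97 and 6.76 CPM in WT and at 5.70, 6.64, 6.51 and 8.86 CPM in Nnmt LKO libraries. Only Nnmt LKO library d lay above the WT range, and the log2 fold change of 0.20 (standard error 0.18) was 0.06 without it. An antisense gene, 9630028H03Rik, shares 178 exonic bases with Plcb1, and whether the counting used strand is not given in the sources used here.

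Of the IP3 receptor channels, Itpr1 overlapped between the genotypes and Itpr2 did not. Itpr1 (chr6:108213096-108551109) was at 35.7, 51.5, 37.5 and 52.5 CPM in WT and at 46.5, 56.4, 57.5 and 48.8 CPM in Nnmt LKO libraries a to d. WT values were low in libraries a and c and high in b and d, and the Nnmt LKO libraries overlapped the high ones, and the log2 fold change was 0.24 (standard error 0.15). Its exons share 108 bases with the antisense gene Gm44040 and 181 bases with Gm44101, a gene on the other strand. Itpr2 (chr6:146108299-146502223, minus strand), the form known for calcium release in hepatocytes, was at 29.4, 32.1, 29.6 and 49.5 CPM in WT and at 23.4, 25.9, 26.2 and 24.5 CPM in Nnmt LKO. The Nnmt LKO libraries were all below WT, but WT library d was far above the other 3 WT libraries. The Nnmt LKO mean was 71.2% of WT (25.0 ± 1.33 against 35.1 ± 9.65 CPM, SD, n = 4 each). The log2 fold change of -0.49 (standard error 0.16) was -0.28 without WT library d.

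Shares within the family set the channels beside each other in the same library. Taking the RPKM of Itpr1, Itpr2 and Itpr3 together, the total was 5.52 ± 1.14 in WT and 5.47 ± 0.379 in Nnmt LKO (SD, n = 4 each). Itpr2 made up 42.9%, 39.1%, 41.8% and 47.0% of that total in WT libraries a to d and 28.2%, 31.1%, 31.0% and 33.8% in Nnmt LKO libraries a to d, without overlap. Itpr1 made up 44.0% ± 4.53 in WT and 52.3% ± 4.68 in Nnmt LKO, with 45.3% in Nnmt LKO library a and 50.6% in WT library b crossing. Itpr3, the form of bile duct cells, held the remainder, 13.4% ± 2.31 and 16.7% ± 6.66. The RPKM of Itpr1 and Itpr2 were close to each other in WT, and their ranges overlapped.

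Rcan1 (ENSMUSG00000022951, chr16:92391953-92470867, minus strand) was the member that stood higher in Nnmt LKO. Its protein binds and regulates calcineurin, the calcium- and calmodulin-dependent phosphatase that activates NFAT, and the gene is itself a target of that route. Normalized counts were 31.6, 39.1, 35.4 and 27.1 CPM in WT libraries a to d and 59.5, 54.3, 66.2 and 61.2 CPM in Nnmt LKO libraries a to d. The lowest Nnmt LKO library, b, exceeded the highest WT library, also lettered b. Means were 33.3 ± 5.14 and 60.3 ± 4.91 CPM (SD, n = 4 each), 181% of WT, and the log2 fold change of 0.86 (standard error 0.13) ran from 0.77 to 0.95 when each library was left out. Of the RPKM of the 3 Rcan genes, Rcan1 accounted for 88.3% ± 3.67 in WT and 92.5% ± 1.68 in Nnmt LKO.

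Pde9a and Pde4b degrade different nucleotides. Pde9a (ENSMUSG00000041119, chr17:31386210-31476310) encodes a phosphodiesterase with high affinity for cGMP. It was at 11.8, 11.1, 10.7 and 12.7 CPM in WT libraries a to d and at 6.08, 5.82, 6.14 and 4.66 CPM in Nnmt LKO libraries a to d. The groups were widely apart and the spread within each was small. The means were 11.6 ± 0.907 and 5.68 ± 0.692 CPM (SD, n = 4 each), 49.1% of WT, and the log2 fold change was -1.03 (standard error 0.14), between -1.07 and -0.94 with each library left out. Pde9a exons share 157 and 138 bases with the antisense genes AC166172.5 and AC166172.6.
Pde4b (chr4:102087543-102607259), a cAMP phosphodiesterase, was at 15.5, 18.2, 18.0 and 19.1 CPM in WT and at 22.0, 19.6, 31.9 and 14.7 CPM in Nnmt LKO libraries. The Nnmt LKO libraries were scattered on both sides of the WT range. Library c alone carried most of the difference, as the log2 fold change of 0.32 (standard error 0.20) was 0.08 without it.

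**Figure D2:**
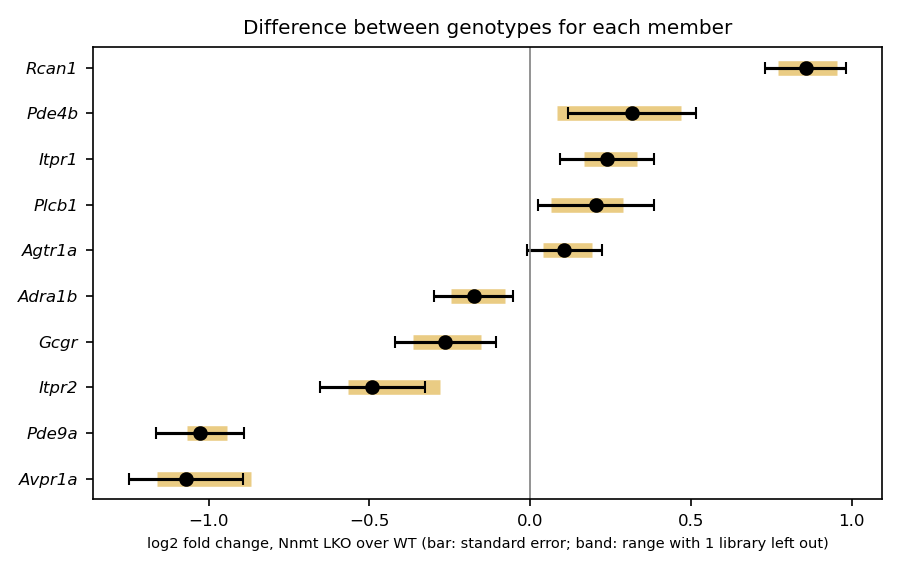
Log2 fold change of each member, Nnmt LKO over WT, with bars for the standard error and yellow bands for the range when 1 library was left out. Rcan1 is at 0.86 and Pde9a and Avpr1a are at -1.03 and -1.07, while the bands of Agtr1a, Adra1b, Plcb1 and Pde4b come to between -0.08 and 0.08 at their nearest to 0.

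Within the phosphodiesterase family, Pde9a held a smaller share in Nnmt LKO, and the totals overlapped. Summed RPKM of the family was 26.7 ± 2.72 in WT and 25.8 ± 3.03 in Nnmt LKO (SD, n = 4 each). Pde9a made up 12.3%, 11.5%, 13.1% and 12.2% of it in WT libraries a to d and 7.42%, 6.39%, 5.76% and 5.41% in Nnmt LKO libraries a to d, with no overlap. As Pde9a was chosen for its lower level and the totals were close, its smaller share restates that choice. Pde4b held 6.31% ± 0.809 in WT and 7.98% ± 1.92 in Nnmt LKO. Pde2a, a cGMP-stimulated enzyme, was the largest contributor in both genotypes, at 29.9% ± 5.10 and 31.1% ± 1.87.

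Per kilobase of exon, the members spanned from 91.2 ± 16.9 RPKM for Gcgr to 0.540 ± 0.092 RPKM for Plcb1 in WT (SD, n = 4 each). Agtr1a followed Gcgr at 34.0 ± 1.52 RPKM. Rcan1, Avpr1a and Adra1b came next at 10.8 ± 1.67, 10.3 ± 2.80 and 8.83 ± 1.21 RPKM, and neighbours among these 3 did not differ beyond their spread. Pde9a, at 3.27 ± 0.256 RPKM, had a higher mean than Itpr1 and Itpr2, with a range apart from that of Itpr1 but overlapping that of Itpr2. The ranges of Itpr1 and Itpr2 overlapped too, and Pde4b stood below them at 1.68 ± 0.147 RPKM. In Nnmt LKO the order was partly different. Rcan1, at 19.5 ± 1.59 RPKM, was clear of Adra1b at 7.81 ± 0.800 RPKM, and Avpr1a, at 4.89 ± 0.604 RPKM, was below Adra1b in every library. Pde9a moved from the sixth place to the ninth, at 1.6 ± 0.195 RPKM, where its range overlapped that of Itpr2.

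**Figure D3:**
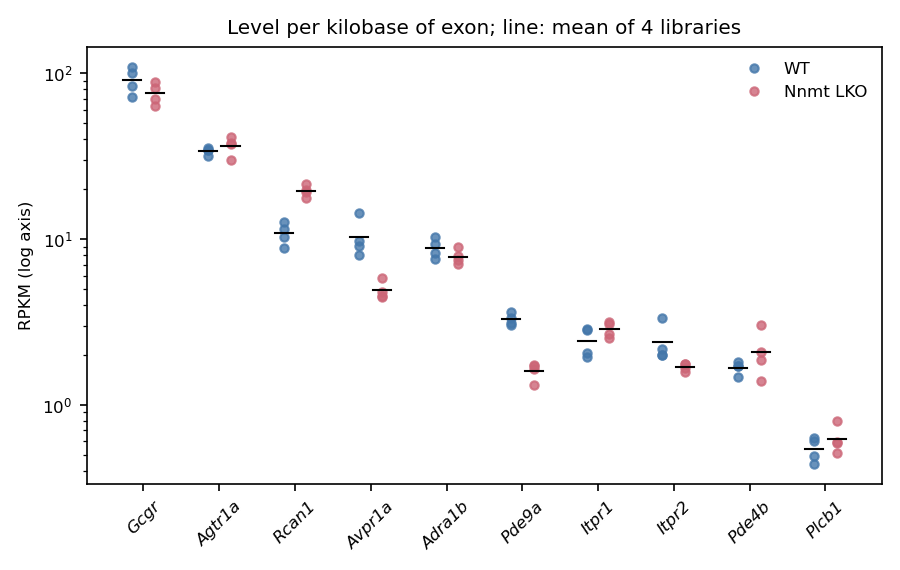
Level of each member per kilobase of exon (RPKM, log axis) in each library, WT in blue and Nnmt LKO in red, with a line for the mean of 4 libraries and genes in the order of the WT mean. Gcgr is highest and Plcb1 lowest in both genotypes, and Avpr1a and Pde9a leave their neighbours downwards in Nnmt LKO.

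The genes whose pattern over the 8 libraries was nearest to a member's were looked up by the root mean square difference of centred log2 CPM among 12241 genes with a mean of at least 1 CPM. For Avpr1a these were Nrip2 (difference 0.16), Pgap2 (0.22) and Pde9a (0.22). Avpr1a and Pde9a were both chosen for a lower level in Nnmt LKO, so their likeness restates that choice. Pde9a was nearest to Ntn3 (0.14), Ears2 (0.16) and Pgap2 (0.16). Rcan1 had Ppp1r1b (0.14), Slc7a2 (0.16) and Gja4 (0.17), where Slc7a2 encodes a transporter of cationic amino acids and Ppp1r1b an inhibitor of protein phosphatase 1. Pgap2 and Ears2 lie on chromosome 7 beyond 75 Mb, a stretch whose 554 tested genes had -0.28 as their median log2 fold change.

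A wider list of 268 genes of the same pathways was looked at for the routes on either side of the members. Of these, 229 passed the filter and entered edgeR's quasi-likelihood test. At an unadjusted p under 0.05, 28 were higher in Nnmt LKO (12.2%, against 5.45% of all tested genes) and 8 were lower (3.49%, against 7.13%), and 193 did not pass. The wider list was drawn up with earlier results of these data known, so nothing is read from the comparison of these shares. For each list by role below, the edgeR counts on all 8 libraries likewise stand beside 5.45% higher and 7.13% lower of all tested genes. Below, a gene of these lists passed if its unadjusted p was under 0.05, and values after ± are SDs of 4 libraries, with WT given first. At an adjusted p under 0.05 (edgeR, Benjamini-Hochberg over all genes), 1 was higher and 0 were lower, where 0.183% and 0.137% of all genes were. With DESeq2 these were 11 higher (4.80%, against 1.41% of all tested genes) and 1 lower (0.437%, against 1.91%). Without Nnmt LKO library a, edgeR gave 4 higher (1.73%, against 0.465%) and 1 lower (0.433%, against 0.498%). In edgeR without the filter, with DESeq2's size factors, or without any other single library, 0 were higher and 0 were lower. Of all tested genes, 0.024% to 0.118% were higher in these settings and 0% to 0.0785% were lower. With robust estimation or total counts only, 1 was higher (0.437%, against 0.183% and 0.124%) and 0 were lower. The median log2 fold change of the 229 genes was 0.12. The count of lower genes at an unadjusted p was 4 without WT library a, where the share over all genes also went down, to 3.97%, and 4 when only total counts were used for scaling, where it was 4.05%. It was 12 without Nnmt LKO library a, with 7.42% of all genes lower.

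**Figure D4:**
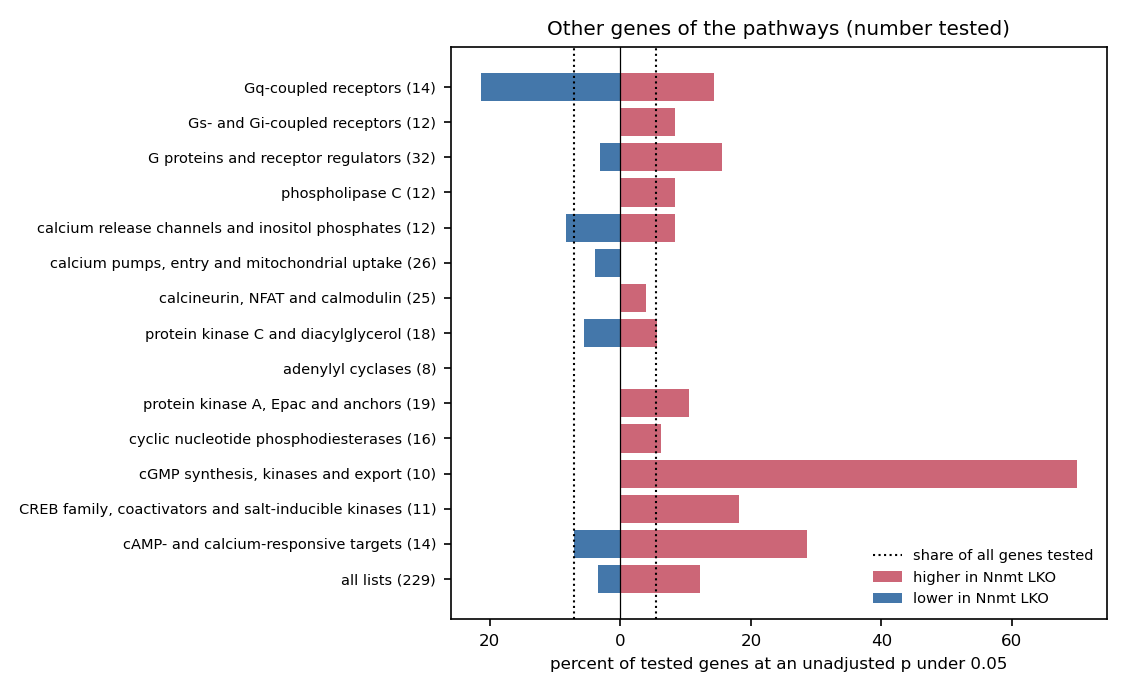
Percent of the tested genes of each list that passed edgeR's test at an unadjusted 0.05, higher in Nnmt LKO to the right in red and lower to the left in blue, with the number tested in brackets and dotted lines for the shares over all tested genes (7.13 and 5.45). The list of cGMP synthesis, kinases and export has the longest bar to the right, and the list of adenylyl cyclases has no bar. The lists were drawn up with earlier results of these data known, so nothing is read from the comparison with the dotted lines.

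Among 14 other receptors that couple to Gq, 3 were lower and 2 were higher. The lower count was 1 without WT library a and 1 with total counts only, and the higher count was 4 without Nnmt LKO library c. Adra1a, the alpha-1A adrenergic receptor, went from 6.58 ± 0.530 to 4.98 ± 0.735 CPM (log2 fold change -0.40, standard error 0.15, adjusted p = 0.305 in edgeR's test). It did not pass without Nnmt LKO library d (-0.31), WT library a (-0.36) or WT library c (-0.36), nor with total counts only (-0.34). P2ry4, a nucleotide receptor, differed by -0.83 on the log2 scale (standard error 0.29, adjusted p = 0.262 in edgeR's test) and -0.70 without WT library d, where it did not pass. The endothelin receptors Ednrb and Ednra, which in liver are known from stellate and endothelial cells, were higher by log2 fold changes of 0.70 and 0.52 (adjusted p = 0.0986 and 0.241, edgeR) in every setting tried. Ednrb was at 10.3, 9.53, 12 and 13.6 CPM in WT and at 23.3, 15.6, 15.8 and 19.5 CPM in Nnmt LKO libraries a to d, without overlap. F2r, a thrombin receptor and the highest of this list in WT, was at 8.20 ± 2.01 and 7.84 ± 1.48 RPKM.

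Markers of the cells that carry such receptors were measured beside them. The summed CPM of 9 stellate cell and fibroblast markers was between 386 and 560 in WT and between 495 and 866 in Nnmt LKO, with the highest value in library a. Of these 9, Lrat, Reln and Dcn were higher at an unadjusted p under 0.05 (edgeR) and none was lower. Over all tested genes, 5.45% were higher and 7.13% lower. Des, Acta2, Pdgfrb, Colec11, Col1a1 and Col3a1 did not pass, with log2 fold changes of 0.01, 0.04, 0.15, 0.20, 0.26 and 0.45. In Nnmt LKO library a, Col3a1 and Col1a1 were at 231 and 106 CPM. Among 6 sinusoidal endothelial markers none passed, with sums of 142 to 278 in WT and 173 to 209 CPM in Nnmt LKO. The 5 cholangiocyte markers summed to 49.9 to 167 in WT and 88.8 to 278 CPM in Nnmt LKO, again highest in library a, and Epcam was higher. Most of each sum was Spp1, at 34.8 to 138 CPM in WT and 71.4 to 243 CPM in Nnmt LKO, which did not pass. Krt19, Krt7 and Sox9 did not pass either (log2 fold changes 0.21, 0.30 and 0.04). No marker of any list was at 0 in all libraries, and the part of these cells in the endothelin receptor values was not tested.

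Zonal markers were also taken, as vasopressin receptors are known to be denser around the central vein of the lobule. The 8 pericentral markers summed to between 12530 and 19908 CPM in WT and between 7465 and 12707 CPM in Nnmt LKO, with the lowest value in library a. Most of each sum was Cyp2e1 alone, at 9299 to 17202 CPM in WT and 4695 to 9654 CPM in Nnmt LKO. Cyp2e1 and Axin2 were lower (log2 fold changes -0.67 and -0.43), Slc1a2 was higher (0.52), and Glul, the marker of the innermost cells, had a log2 fold change of 0.08. The 7 periportal markers ran from 5115 to 9931 CPM in WT and from 4363 to 8317 CPM in Nnmt LKO, and none passed. The part of zonation in the lower Avpr1a level was not tested. The 7 hepatocyte markers, led by Alb, ran from 74243 to 110895 CPM in WT and from 62791 to 110527 CPM in Nnmt LKO, none of them past the test, and leukocyte lists (Kupffer cells, other leukocytes) had no marker past the test either.

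Of 12 receptors that couple to Gs or Gi, 1 passed, with 0 without Nnmt LKO library a or c or WT library d and 2 without Nnmt LKO library b or d. Pth1r, the parathyroid hormone receptor, had a log2 fold change of 0.34 (adjusted p = 0.395 in edgeR's test), and it did not pass without Nnmt LKO library a, b or c or WT library a, c or d, with values of 0.27 to 0.37. Adora1, the adenosine A1 receptor, was the highest of the list at 11.4 ± 2.81 RPKM in WT and 10.6 ± 2.75 RPKM in Nnmt LKO.

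Among 32 G proteins and receptor regulators, 5 were higher and 1 was lower. The higher count was 2 without Nnmt LKO library a or WT library b, 3 without Nnmt LKO library b or WT library a, and 3 with total counts only. The lower count was 0 without WT library a and 2 without Nnmt LKO library a. Gnaq, which encodes the Gq subunit that couples vasopressin receptors to phospholipase C, was at 7.55, 7.99, 9.93 and 10.3 CPM in WT and at 13.9, 12.6, 10.6 and 11.7 CPM in Nnmt LKO. Every Nnmt LKO library was above WT, by a small margin for library c (log2 fold change 0.45, standard error 0.15, adjusted p = 0.226, edgeR). Rgs5, a regulator of G protein signalling known from pericytes, was higher by 0.77 on the log2 scale (standard error 0.17, adjusted p = 0.0907, edgeR). Gna14, Gna13 and Gnb4, named after their values were seen, also passed (adjusted p = 0.356, 0.354 and 0.39, edgeR) but did not pass in 5, 7 and 7 of 13 alternatives. Rgs16 was lower, with a log2 fold change of -1.52 (adjusted p = 0.248, edgeR), but at -0.52 it did not pass without WT library a. Gnai2 was the highest of the list and near equal, at 52.4 ± 0.936 RPKM in WT and 53.7 ± 5.86 RPKM in Nnmt LKO.

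Few enzymes and channels next to Plcb1 and the IP3 receptors passed the test. Of 12 phospholipase C genes, Plce1, which encodes the epsilon form activated by Ras proteins, was higher by 0.44 on the log2 scale (standard error 0.13, adjusted p = 0.182, edgeR). The count of higher phospholipase C genes was 2 without WT library c, and 1 was lower without Nnmt LKO library a or WT library b. Plcg1, the highest of them, was at 5.73 ± 0.677 and 5.22 ± 0.462 RPKM. Of 12 genes for calcium release and inositol phosphates, Ahcyl2, a relative of the IP3 receptor binding protein Ahcyl1, was higher by 0.32 (adjusted p = 0.211, edgeR). Inpp1, an inositol polyphosphate phosphatase, was lower, at -0.42 (adjusted p = 0.292, edgeR) and did not pass without Nnmt LKO library b (-0.33) or with total counts only (-0.35). This list had 2 lower genes without WT library c and 2 higher genes without WT library d. Ahcyl1 was at 12.7 ± 0.995 and 13.0 ± 0.524 RPKM.
Of 26 genes for calcium pumps, entry and mitochondrial uptake, 1 was lower and 0 were higher by edgeR. The lower count was 2 without Nnmt LKO library b or WT library c, and the higher count was 1 without Nnmt LKO library b or c, 2 without WT library c or d and 2 with DESeq2. Orai3, a subunit of store-operated calcium channels, went from 18.5, 21.6, 18.3 and 17.9 CPM in WT to 14.5, 16.1, 14.2 and 12.9 CPM in Nnmt LKO, without overlap (log2 fold change -0.40, standard error 0.11, adjusted p = 0.166, edgeR). It lies at chr7:127769815-127775150, in the stretch of chromosome 7 with the median of -0.28 given above. Smdt1, a subunit of the mitochondrial calcium uniporter and the highest of the list, was at 73.3 ± 3.15 RPKM in WT and 62.3 ± 6.71 RPKM in Nnmt LKO (log2 fold change -0.23, standard error 0.11) and did not pass.

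Around Rcan1, 25 genes of calcineurin, NFAT and calmodulin were tested and 1 was higher, with 2 without Nnmt LKO library a or WT library d. The calcineurin catalytic genes Ppp3ca and Ppp3cb, chosen after their values were seen, had log2 fold changes of 0.10 (standard error 0.12) and 0.08 (standard error 0.10). Camk2b, a calmodulin-dependent kinase gene, was at 23.2, 16.7, 20.6 and 25.0 CPM in WT and at 35.5, 37.2, 39.0 and 24.1 CPM in Nnmt LKO. Nnmt LKO library d lay within the WT range and the other 3 above it, a difference of 0.67 on the log2 scale (standard error 0.17, adjusted p = 0.118, edgeR). Calm2, the calmodulin gene with the highest level, was at 67.3 ± 6.04 and 74.7 ± 10.3 RPKM. Of 18 protein kinase C and diacylglycerol genes, Prkca was higher by 0.30 and Prkd3 lower, at -0.39 (adjusted p = 0.311 and 0.325, edgeR). Prkca did not pass without Nnmt LKO library c (0.28) or WT library b or c (0.27 and 0.26), and Prkd3 without Nnmt LKO library c or d (-0.33 and -0.36) or WT library a or d (-0.27 and -0.31). With total counts only, neither passed (0.34 and -0.33). Dgkz, a diacylglycerol kinase and the highest of that list, was at 9.05 ± 0.326 and 8.90 ± 1.70 RPKM.

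On the cAMP side, none of 8 adenylyl cyclases passed by edgeR or DESeq2, and 1 was higher without Nnmt LKO library b, WT library a or WT library b. Adcy6 was the highest of them at 8.52 ± 1.85 and 8.30 ± 0.875 RPKM. Of 19 genes for protein kinase A, Epac and anchors, 2 were higher. That count was 5 without WT library c or d, 4 with DESeq2, and 1 without Nnmt LKO library b, c or d, without WT library a and with total counts only. Rapgef4, which encodes Epac2, a cAMP-activated exchange factor, was at 106, 124, 133 and 120 CPM in WT and at 125, 219, 243 and 252 CPM in Nnmt LKO libraries a to d. Nnmt LKO library a lay among the WT libraries and the other 3 were far above them (log2 fold change 0.80, standard error 0.20, adjusted p = 0.113, edgeR). Akap11, an anchoring protein gene, had a log2 fold change of 0.27 (adjusted p = 0.373, edgeR) and did not pass without Nnmt LKO library b, c or d or WT library a or b, with values of 0.22 to 0.29, nor with total counts only (0.30). Prkar1a, a regulatory subunit of protein kinase A, was at 42.5 ± 3.46 and 46.7 ± 4.54 RPKM.

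Pde4d was the gene of the wider list that rose at an adjusted p under 0.05. Like Pde4b it encodes a cAMP phosphodiesterase of family 4, and it was the 1 gene past the test among 16 phosphodiesterases tested beside the members, with 2 without Nnmt LKO library b or WT library d and 3 with DESeq2. Normalized counts were 10.7, 8.56, 9.08 and 10.4 CPM in WT libraries and 19.7, 17.8, 29.8 and 15.5 CPM in Nnmt LKO libraries a to d. All Nnmt LKO libraries were above WT, and library c was the highest, as for Pde4b. Its log2 fold change of 1.10 (standard error 0.19) had an edgeR adjusted p of 0.0496, and the adjusted p ran from 3.45e-05 to 0.173 over the alternatives and was under 0.05 in 3 of 13. The lower bound came from DESeq2 and the upper from leaving out WT library a. A second row with the symbol Pde4d, with an identifier that is not in GENCODE M21, went from 2.88 ± 0.477 to 7.08 ± 1.54 CPM (log2 fold change 1.30, adjusted p = 0.0399, edgeR). Within the phosphodiesterase family, Pde4d made up 3.03% ± 0.324 in WT and 6.60% ± 1.33 in Nnmt LKO, while the level of Pde2a was 8.09 ± 2.10 and 8.06 ± 1.33 RPKM.

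Beside the lower Pde9a, genes of cGMP synthesis, kinases and export were higher in 7 of 10 tested and lower in none. Of all tested genes, 5.45% were higher and 7.13% were lower at the same unadjusted p. The list was drawn up with earlier results of these data known, so nothing is read from the comparison of these shares. By edgeR on all 8 libraries, 0 genes of the list had an adjusted p under 0.05. The soluble guanylate cyclase subunits Gucy1a1 and Gucy1b1, which make cGMP in response to nitric oxide, lie side by side on chromosome 3. Gucy1a1 was at 5.91, 6.47, 7.41 and 8.56 CPM in WT and at 11.7, 9.24, 9.77 and 10.3 CPM in Nnmt LKO libraries. Gucy1b1 was at 4.34, 4.17, 5.39 and 4.42 CPM in WT and at 8.30, 5.80, 5.80 and 6.44 CPM in Nnmt LKO. Both were above WT in every Nnmt LKO library, highest in library a, with log2 fold changes of 0.53 and 0.52 (standard errors 0.15 and 0.17, adjusted p = 0.161 and 0.216, edgeR). Abcc4, an exporter of cyclic nucleotides and bile acids and the highest of the list, went from 5.87 ± 1.47 to 8.43 ± 1.29 RPKM (adjusted p = 0.25, edgeR). The other 4, named after their values were seen, were the receptor cyclase Gucy2c, the natriuretic peptide clearance receptor Npr3, the endothelial nitric oxide synthase Nos3 and the cGMP-dependent kinase Prkg1. Their log2 fold changes were 1.03, 0.77, 0.41 and 0.93 (adjusted p = 0.311, 0.282, 0.351 and 0.364, edgeR). Npr3 and Nos3 were counted in this list although neither encodes a cyclase, a kinase or an exporter of cGMP. Gucy2c and Prkg1 had mean levels of 1.5 CPM or less in both groups. Npr3 passed in all 13 alternatives, whereas Gucy2c, Nos3 and Prkg1 did not pass in 3, 5 and 6 of them. The count of higher genes was 7 with DESeq2 and 5 to 7 with each library left out, with 5 without Nnmt LKO library a and 5 without WT library a. Of all tested genes, 6.65%, 5.84% and 4.12% were higher with DESeq2, without Nnmt LKO library a and without WT library a. Nnmt LKO library a also had the highest sums of stellate cell markers and of cholangiocyte markers given above, the latter mostly Spp1. The part of these cells in the cGMP list was not tested.

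At the far end of both routes, the CREB family list and the list of responsive targets were examined. Of 11 CREB family, coactivator and salt-inducible kinase genes, 2 were higher, and 1 was lower without Nnmt LKO library a. Sik1, a salt-inducible kinase gene that CREB itself induces, was at 28.7, 43.9, 32.4 and 15.5 CPM in WT and at 72.9, 48.9, 101 and 58.1 CPM in Nnmt LKO libraries, without overlap (log2 fold change 1.22, standard error 0.29, adjusted p = 0.107, edgeR). Crem, a cAMP-responsive modulator, had a log2 fold change of 0.51 (adjusted p = 0.37, edgeR), and it did not pass without Nnmt LKO library c or d or any single WT library, with values of 0.25 to 0.55, which left 1 higher gene in this list. Sik3 was the highest of the list at 8.79 ± 1.42 and 8.28 ± 1.46 RPKM.

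Of 14 targets that cAMP or calcium is known to induce, 4 were higher and 1 was lower. Ppargc1a, the coactivator that drives gluconeogenic genes, was at 12.9, 12.3, 10.5 and 11.8 CPM in WT and at 15.4, 18.5, 23.1 and 26.6 CPM in Nnmt LKO libraries a to d. G6pc, the glucose-6-phosphatase that releases glucose, was at 226, 382, 232 and 213 CPM in WT and at 395, 526, 461 and 667 CPM in Nnmt LKO. Neither gene overlapped between the genotypes, although WT library b came close to the Nnmt LKO range for G6pc. Their log2 fold changes were 0.82 (standard error 0.17, adjusted p = 0.0711, edgeR) and 0.96 (standard error 0.22, adjusted p = 0.0907, edgeR), past the unadjusted test in all 13 alternatives. Fosb, an immediate early gene, was lower by a log2 fold change of -1.5 at a mean of 1.31 ± 0.742 CPM in WT (adjusted p = 0.216, edgeR). Pck1 and Igfbp1, chosen after their values were seen, were higher by 0.42 and 1.03, and Pck1 did not pass in 5 of 13 alternatives. The rest, among them Nr4a1, Per1, Dusp1 and Tat, did not pass, with Tat at 864 ± 317 RPKM in WT and 1198 ± 253 RPKM in Nnmt LKO. The number of higher targets was 8 without WT library b, 6 without Nnmt LKO library a and 7 with total counts only, and 3 without Nnmt LKO library c, WT library c or WT library d. Without Nnmt LKO library c, 2 were lower.

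**Figure D5:**
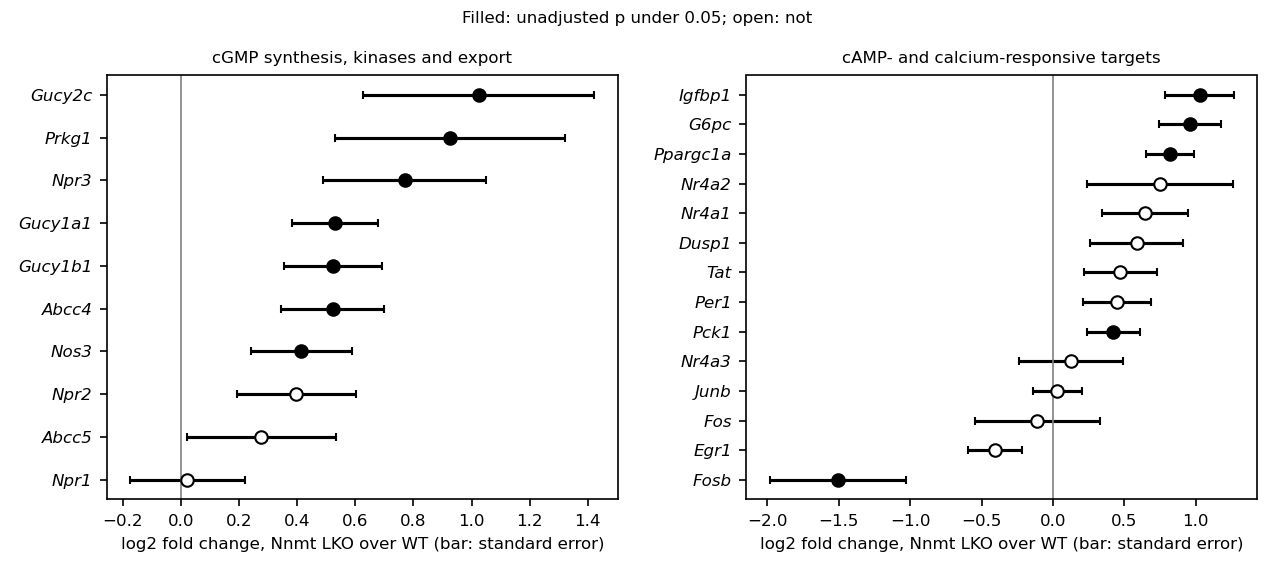
Log2 fold change, Nnmt LKO over WT, of the tested genes of cGMP synthesis, kinases and export (left) and of the targets of cAMP and calcium (right), with bars for the standard error and filled points for genes that passed edgeR's test at an unadjusted 0.05. On the left 7 of 10 points are filled and lie to the right of 0, and on the right 4 filled points lie above 0 and 1, Fosb, lies at -1.5. Of all tested genes, 5.45% were higher and 7.13% were lower at that threshold.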

How the data were processed

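Whole-number counts per gene, without normalization, were deposited by the authors for 4 Nnmt LKO and 4 WT liver libraries. Reads were aligned with HISAT2 according to the study's methods, and the submitters' processing notes also name StringTie and mm10. The annotation, the counting step and its use of strand are not given in the sources used here, so reads of overlapping or antisense genes may have been assigned to either. The study's methods name 1 library kit (KAPA RNA HyperPrep) and the labels another (NEBNext Ultra). Columns carry the genotype only, and libraries were lettered by column order and not paired.

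Of 33212 genes, 12414 had 0 counts in every library. The filter was edgeR's filterByExpr with a minimum count of 10, and genes were scaled by TMM and tested in 1 fit of all 8 libraries by the quasi-likelihood test of edgeR 4.0.16 in R 4.3.3, with Benjamini-Hochberg adjustment over 15291 genes. Standard errors are those implied by the F statistic. Pairs of libraries of one genotype differed well beyond sampling noise (chi-square per degree of freedom 35.2 to 217), and no batch is given. Each library is 1 mouse, and precision rests on the spread between 4 mice. RPKM used union exon lengths of GENCODE M21 (GRCm38), which held 15146 of the tested genes. The similarity search added 0.5 CPM before the log.

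The members and all gene lists were chosen with earlier results of these data known. Text names all members, wider genes at an adjusted p under 0.05, up to 2 genes per list and direction with the smallest unadjusted p under 0.05, the gene with the highest WT RPKM in each list, and the 3 genes most like Avpr1a, Pde9a and Rcan1. Others are marked. Alternatives were DESeq2 1.42.0 (the tool the study names), its size factors in edgeR, total counts only, no filter, robust estimation, and leaving out each library. On simulated counts of 15044 genes for this comparison, edgeR called, at an unadjusted p under 0.05, 172 of 194 genes given a log2 change of 1 and 685 unchanged genes.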

Additional observations from a re-analysis of the deposited data

Results flagged for a closer look

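Of 118 sets of 4 libraries examined for the members and the named genes, 5 held 1 library far from its group, where chance gives about 5.9. Itpr2 was at 49.5 CPM in WT library d and between 29.4 and 32.1 CPM in the other WT libraries. Rgs16, a regulator of G protein signalling, was at 222.5 CPM in WT library a and between 41.1 and 52.9 CPM in the others. Orai3 was at 21.6 CPM in WT library b against 17.9 to 18.5 CPM, and Smdt1 at 115 CPM in WT library a against 106 to 107 CPM. G6pc was at 382 CPM in WT library b against 213 to 232 CPM. All 5 were the highest WT library for that gene. The cause was not tested.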

How the results depend on the processing

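No paired analysis was possible because the columns of counts carry no mouse number. The log2 fold changes of the members, the values the choice used, kept their sign in 13 of 13 alternatives, but single libraries carried much of some: Pde4b was at 0.08 without Nnmt LKO library c, Plcb1 at 0.06 without Nnmt LKO library d, Adra1b at -0.08 without WT library a and Itpr2 at -0.28 without WT library d. The count of wider pathway genes lower in Nnmt LKO was 8, and it was 4 with total counts only, 4 to 12 with each library left out (4 without WT library a, 12 without Nnmt LKO library a) and 0 at an adjusted p. The share of all genes called lower was 7.13%, and 4.05%, 3.97% and 7.42% with total counts only, without WT library a and without Nnmt LKO library a. The count of higher genes was 28, and it was 36 with DESeq2, 23 to 33 with each library left out (23 without WT library a, 33 without WT library d) and 1 at an adjusted p. The share of all genes called higher was 5.45%. It was 6.65%, 4.12% and 6.42% with DESeq2, without WT library a and without WT library d. The share of calls that were higher was 77.8%, 87.1% with total counts only and 68.4% to 85.2% with each library left out. Over all tested genes, 834 calls were higher and 1091 lower, and with total counts only 5.35% of genes were higher. The list was drawn up with earlier results of these data known, so nothing is read from these comparisons. The cause of the shifts between settings was not tested, except that an adjusted p is stricter by construction. Of 467 repeats of the 36 genes called, 384 kept the call, 83 lost it and 0 reversed, and 19 genes kept it throughout. DESeq2 gave no p for Rgs16. Depth limits genes near 0.0418 CPM (3 counts), not the members.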
